A study of Mus musculus with 12 samples.

Results

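The interferon-response genes examined here were 45 named interferon-stimulated genes, looked up by symbol in a table of read counts for 55573 genes of the mouse hippocampus. They were divided by the family they belong to, with no measured value used. The guanylate-binding proteins and immunity-related GTPases, 7 genes that are classic targets of interferon gamma, formed the gamma-type class. The other 38 formed the type I-type class. Of the 45 genes, 37 passed the expression filter and were tested, which were 30 type I-type genes and all 7 gamma-type genes, and 8 type I-type genes were too low.

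Interferons are secreted cytokines. Type I interferons act through the receptor pair Ifnar1 and Ifnar2 and the kinases Jak1 and Tyk2, and a complex that holds Stat2 and Irf9 then binds the interferon-stimulated response element (ISRE) in the promoters of target genes. Interferon gamma acts through Ifngr1 and Ifngr2, and many of its targets carry the gamma-activated site (GAS). Most target genes answer to more than a single interferon, so that the class names describe the typical inducer and not the ligand present in a sample. In brain tissue with amyloid plaques, expression of interferon-stimulated genes is best known from microglia.

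The RNA came from the whole hippocampus of the right side in 12 C57BL/6J mice aged 4.5 months. APPSwe/Ps1dE9 mice (APP/PS1) have 2 transgenes with mutations of familial Alzheimer's disease, 1 for APP (part mouse, part human sequence) and 1 for human PS1 lacking an exon, and a prion promoter drives both. They were compared with wild-type (WT) mice in each sex. There were 4 APP/PS1 females, 4 APP/PS1 males, 2 WT females and 2 WT males, so that each sex rested on 2 WT animals. Total counts ranged from 36714316 to 50643565 per library, and levels are given as CPM, the count of a gene relative to the size of its library, normalized by upper-quartile scaling.

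The summed level of the marker genes of neurons was 5815 to 6528 CPM in APP/PS1 and 5889 to 6323 CPM in WT animals, so that neuronal markers were present in every library. In 3 libraries, namely APP/PS1 male 2, WT female 2 and APP/PS1 female 1, the choroid plexus gene Ttr was at 3530 to 6362 CPM, against 2.69 to 18.3 CPM in the other 9, and these 3 are called choroid plexus-rich. Most of the interferon-response genes were also higher in these libraries than in the others of the same group. Of the 37 tested, 34 were higher in APP/PS1 male 2, 31 in APP/PS1 female 1 and 32 in WT female 2, with median log2 differences of 0.49, 0.24 and 0.35, against 52.5%, 49.3% and 57.9% of all tested genes. The model held 2 factors of unwanted variation (RUV factors), the first of which separated these 3 libraries from the other 9. The class medians, the lost calls and the direction in which the averaged and female counts of called genes moved are also given without these libraries.

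Interferon-response genes were higher in APP/PS1 hippocampus than in WT. The list was chosen with earlier results of these data known, so that the shares below describe it and are no independent test. With both sexes averaged, 23 of the 37 tested genes were higher at an FDR under 0.1 and none was lower (edgeR quasi-likelihood test with Benjamini-Hochberg adjustment over 14008 genes), whereas 1.75% of all tested genes were called higher. The called genes were 19 of 30 type I-type and 4 of 7 gamma-type genes. At an unadjusted p under 0.05, 35 of 37 were higher, against 6.26% of all genes. Fitted log2 fold changes were above 0 for 36 of 37, against 54.7% of all genes, and Adar was the exception. The median log2 fold change was 0.49 over the type I-type genes and 0.52 over the gamma-type genes, against 0.0096 over all tested genes. The filter kept genes whose log2 CPM reached 1 in 3 or more of the 12 animals, and 7 of the 37 genes (Irf7, Ifit1, Isg15, Rtp4, Ifi27l2a, Ifi35 and Sp100) did not reach it in 3 WT animals, so that their passage rested on APP/PS1 animals. Among the 30 that reached it in 3 or more WT animals 18 were called higher, against 1.48% of the genes of that kind.

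The count of called genes depended on the RUV factors and on single libraries, and no fit called any of the genes lower. Over all 14008 genes, 266 were called in either direction in the main fit and 173 without RUV factors. All calls were 178 of 13893 without APP/PS1 male 2, 192 of 13851 without APP/PS1 female 1 and 203 of 13974 without APP/PS1 female 2. The fits without the choroid plexus-rich libraries or without a WT animal leave 1 WT animal in a sex. Without RUV factors 10 of 37 were called. Fewer than in the main fit were also called without the 3 choroid plexus-rich libraries, although calls over all genes did not become fewer there. The count was 8 with APP/PS1 male 2 left out, 12 without APP/PS1 female 1 and 13 without APP/PS1 female 2. It was also lower without WT female 1, WT female 2 or WT male 2, each left out alone, where calls over all genes were fewer too. The medians moved little without RUV factors, at 0.55 for both classes, and without the 3 choroid plexus-rich libraries, at 0.52 and 0.56. With a term for replicate number and no RUV factors they were larger, at 0.66 for the type I-type and 0.86 for the gamma-type genes.

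**Figure D1:**
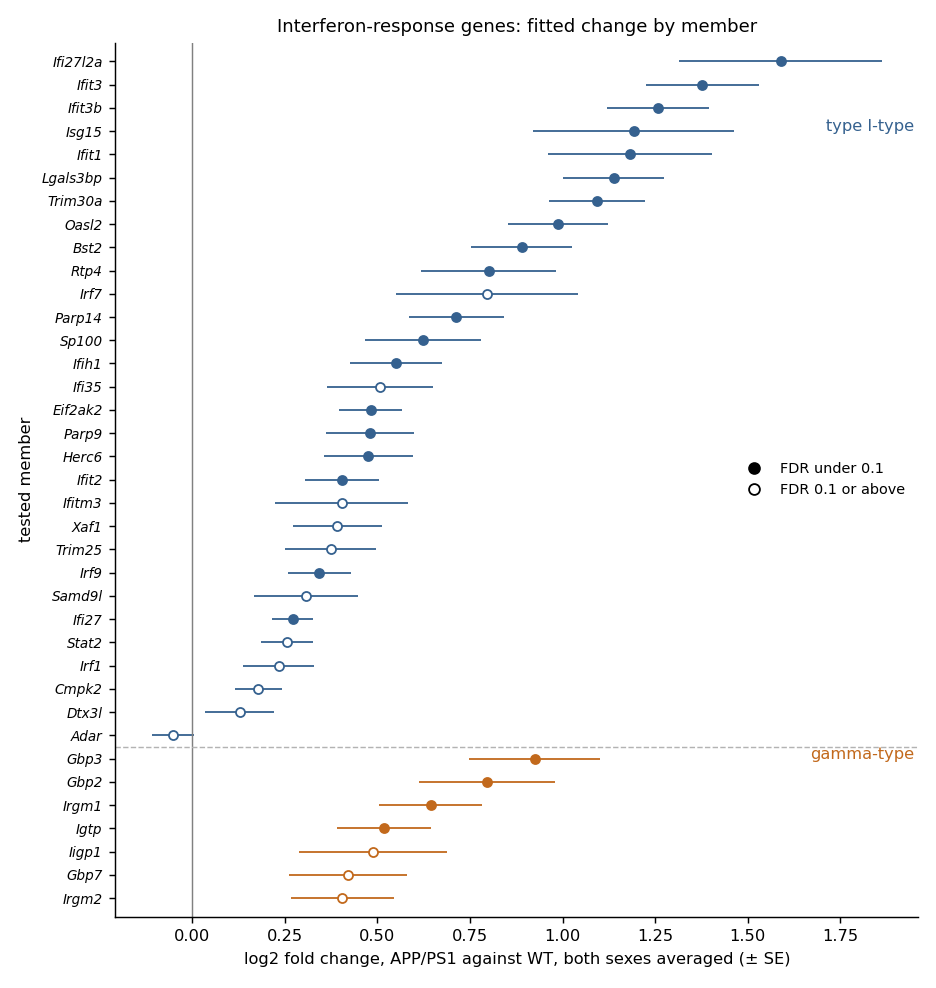
Fitted log2 fold change of each of the 37 tested genes, APP/PS1 against WT with both sexes averaged, with the standard error as a bar. Filled points passed an FDR of 0.1, and all points but Adar, at -0.05, lie to the right of 0.

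The levels of the animals were also compared without the model. In 7 genes the lowest APP/PS1 animal exceeded the highest WT animal, against 1.31% of all tested genes. These were Ifit3, Ifit3b, Trim30a, Eif2ak2 and Parp14 of the type I-type and Gbp2 and Gbp3 of the gamma-type. In females alone 23 of 37 genes did not overlap, against 12.5% of all genes, and in males 24 of 37, against 6.5%. Both counts include Ifit1, Isg15, Rtp4, Ifi27l2a and Sp100, the female count also Irf7 and the male count also Ifi35. These genes passed the filter through APP/PS1 animals, which favours a lack of overlap.

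The IFIT proteins, which bind viral RNA and block its translation, held the genes with the smallest p-values. All 4 family members in the list were called higher. Ifit3b (chr19:34607970-34613401 in GRCm38, plus strand) was at 6.59, 7.08, 6.75 and 4.82 in the APP/PS1 females, 6.37, 7.66, 4.89 and 4.99 in the APP/PS1 males, 2.49 and 2.94 in the WT females and 2.29 and 2.58 in the WT males (CPM). All 8 APP/PS1 values were above all 4 WT values. The log2 fold change was 1.26 ± 0.14 (SE), a 2.39-fold difference, with an FDR of 0.000585. Its neighbour Ifit3 (chr19:34583531-34588731, plus strand) was at 10.7, 14.3, 10.8 and 8.92 in the APP/PS1 females, 9.25, 12.7, 7.13 and 8.48 in the APP/PS1 males, 4.05 and 3.75 in the WT females and 4.03 and 3.98 in the WT males. The WT animals lay close together and the groups did not overlap, with a log2 fold change of 1.38 ± 0.15 and an FDR of 0.000824. Ifit1 was lower, at 5.29, 6.02, 3.52 and 3.40 in the APP/PS1 females, 3.67, 5.13, 2.19 and 3.03 in the APP/PS1 males, 1.67 and 2.79 in the WT females and 1.87 and 0.926 in the WT males. APP/PS1 male 3 was below WT female 2, the other 7 APP/PS1 animals were above all WT animals, and the log2 fold change was 1.18 ± 0.22 (FDR = 0.0222). Ifit2 rose by 0.40 ± 0.10 (FDR = 0.0805).

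Ifit3 and Ifit3b are close copies of each other. Of the distinct 150-base stretches of their GENCODE transcripts, 150 bases being the length of a read, 18.5% of those of Ifit3 also occur in Ifit3b and 16% of those of Ifit3b in Ifit3, so that their separate values are uncertain to that extent. The 250 bases upstream of both starts are shown because they carry the same pair of ISRE matches. Capitals mark matches to the ISRE core GAAANNGAAA on either strand, where N is any base. Sequences are from RefSeq (GRCm38.p6), read 5′ to 3′ on the strand of the gene, for Ifit3b at chr19:34607707-34607956 and for Ifit3 at chr19:34583279-34583528, both on the plus strand.
Ifit3b: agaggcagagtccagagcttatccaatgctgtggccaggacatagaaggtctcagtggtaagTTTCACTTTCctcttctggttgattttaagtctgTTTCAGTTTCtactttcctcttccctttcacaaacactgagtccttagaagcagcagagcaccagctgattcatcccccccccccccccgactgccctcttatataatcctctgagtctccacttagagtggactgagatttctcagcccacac
Ifit3: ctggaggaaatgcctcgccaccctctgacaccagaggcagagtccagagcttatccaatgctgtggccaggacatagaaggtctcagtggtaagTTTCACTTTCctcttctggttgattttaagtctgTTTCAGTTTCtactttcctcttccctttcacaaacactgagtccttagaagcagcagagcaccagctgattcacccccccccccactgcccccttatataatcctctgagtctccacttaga
In both, the matches read TTTCACTTTC and TTTCAGTTTC on the strand shown. They begin 188 and 154 bases upstream of the Ifit3b start and 156 and 122 bases upstream of the Ifit3 start.

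Trim30a, a tripartite motif protein induced by interferon, came next in order of p-value. Trim30a (chr7:104409025-104465193, minus strand) was at 6.51, 6.36, 7.14 and 6.72 in the APP/PS1 females, 4.65, 6.26, 3.64 and 4.63 in the APP/PS1 males, 2.22 and 3.27 in the WT females and 2.58 and 2.38 in the WT males. The 4 females were the highest of the APP/PS1 animals, APP/PS1 male 3 was the lowest at 3.64 and still above WT female 2 at 3.27. Its log2 fold change was 1.09 ± 0.13 (FDR = 0.000901). The second of its 2 RefSeq promoters (chr7:104446076-104446375, minus strand) held 1 ISRE match, which begins 2 bases after that start, and is not shown. The region upstream of the first start (chr7:104465194-104465443, minus strand) is shown for its single ISRE match, in capitals. This match begins 36 bases upstream of the first start.
Trim30a: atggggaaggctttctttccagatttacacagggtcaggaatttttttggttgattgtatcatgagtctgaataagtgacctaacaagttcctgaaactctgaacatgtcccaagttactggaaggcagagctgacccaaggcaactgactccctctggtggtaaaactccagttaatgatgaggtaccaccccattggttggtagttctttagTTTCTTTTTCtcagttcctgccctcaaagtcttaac

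Oasl2 belongs to the oligoadenylate synthetase (OAS) family, whose active members make short oligoadenylates that switch on RNase L. Oasl2 (chr5:114896936-114912234, plus strand) was at 7.04, 5.88, 5.55 and 3.93 in the APP/PS1 females, 3.10, 5.49, 2.40 and 3.59 in the APP/PS1 males, 2.01 and 2.68 in the WT females and 2.26 and 2.13 in the WT males. APP/PS1 male 3 lay below WT female 2, and the other 7 APP/PS1 animals were above all WT animals. The log2 fold change was 0.99 ± 0.13 (FDR = 0.00293). The other OAS genes of the list, Oas1a and Oas2, did not pass the filter.

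Among the nucleic acid sensors and RNA-binding enzymes, 2 of the 3 tested genes rose. Eif2ak2 encodes PKR, the kinase that halts translation on binding double-stranded RNA, and was at 12.5, 8.84, 11.4 and 10.03 in the APP/PS1 females, 8.94, 14.2, 9.21 and 8.81 in the APP/PS1 males, 6.40 and 8.78 in the WT females and 7.71 and 6.19 in the WT males. All APP/PS1 animals were above all WT animals, by a small margin, as WT female 2 at 8.78 lay just below APP/PS1 male 4 at 8.81. The log2 fold change was 0.48 ± 0.09 (FDR = 0.0146). Ifih1 encodes the double-stranded RNA sensor MDA5 and was at 6.16, 5.14, 5.76 and 4.74 in the APP/PS1 females, 6.18, 6.67, 4.03 and 4.73 in the APP/PS1 males, 2.80 and 3.86 in the WT females and 4.08 and 4.0 in the WT males. APP/PS1 male 3 lay within the WT range, and the log2 fold change was 0.55 ± 0.13 (FDR = 0.0541). Adar, which edits adenosines in double-stranded RNA, was at 139 to 203 CPM in APP/PS1 and 158 to 185 CPM in WT. Its log2 difference was -0.05 ± 0.06 (FDR = 0.834, approximate 95% interval from a normal quantile -0.16 to 0.06).

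Bst2, called tetherin because it holds budding virus at the cell surface, was at 11.7, 7.03, 6.86 and 6.05 in the APP/PS1 females, 6.96, 10.3, 4.03 and 5.47 in the APP/PS1 males, 3.52 and 6.43 in the WT females and 3.50 and 2.34 in the WT males. WT female 2 overlapped the APP/PS1 animals and WT female 1 did not, and the log2 fold change was 0.89 ± 0.14 (FDR = 0.00685). Without RUV factors its log2 fold change was 0.93 with an FDR of 0.303, and without the 3 choroid plexus-rich libraries 0.91 with an FDR of 0.111. Rtp4, a transporter-like protein of the antiviral response, was at 2.96, 2.56, 1.63 and 1.64 in the APP/PS1 females, 2.27, 2.55, 1.33 and 1.78 in the APP/PS1 males, 0.952 and 1.36 in the WT females and 1.29 and 1.22 in the WT males. APP/PS1 male 3 was below WT female 2, and the log2 fold change was 0.80 ± 0.18 (FDR = 0.0550). Ifitm3, which blocks entry of viruses at endosomal membranes, was at 11.1, 10.3, 10.5 and 9.70 in the APP/PS1 females, 10.2, 11.1, 5.72 and 7.81 in the APP/PS1 males, 5.87 and 6.76 in the WT females and 5.82 and 10.6 in the WT males. WT male 2, at 10.6, lay among the upper APP/PS1 values, and the log2 difference of 0.40 ± 0.18 did not pass (FDR = 0.509).

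Isg15, a ubiquitin-like protein that is joined to other proteins, had a log2 fold change of 1.19 ± 0.27 (FDR = 0.0553) at 1.04 to 3.11 CPM in APP/PS1 and 0.688 to 1.16 CPM in WT. Herc6, the ligase that attaches Isg15 in mice, rose by 0.47 ± 0.12 (FDR = 0.0928). Trim25, a ubiquitin ligase of the RNA-sensing pathway, differed by 0.37 ± 0.12 and did not pass (FDR = 0.275).

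Parp14 and Parp9 are ADP-ribosyltransferases, and Dtx3l is the ubiquitin ligase that partners Parp9. Parp14 was at 6.79, 5.46, 4.79 and 4.07 in the APP/PS1 females, 4.96, 4.95, 3.39 and 4.0 in the APP/PS1 males, 2.41 and 2.90 in the WT females and 3.37 and 3.11 in the WT males. The groups did not overlap, although APP/PS1 male 3 exceeded WT male 1 by only a little, and the log2 fold change was 0.71 ± 0.13 (FDR = 0.0164). Parp9 rose by 0.48 ± 0.12 (FDR = 0.0852), and Dtx3l differed by 0.13 ± 0.09 without passing (FDR = 0.716).

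Lgals3bp, a secreted glycoprotein that binds galectins, was at 41.8, 22.7, 29.8 and 20.9 in the APP/PS1 females, 21.2, 35.2, 14.1 and 25.7 in the APP/PS1 males, 11.1 and 21.2 in the WT females and 7.66 and 10.4 in the WT males. The highest animal of each of 3 groups was the choroid plexus-rich library, and WT female 2 overlapped the APP/PS1 range. The log2 fold change was 1.14 ± 0.14 (FDR = 0.00300), and 1.12 with an FDR of 0.242 without RUV factors. Ifi27l2a, a small interferon-induced membrane protein, had the largest fitted fold change of the 37 tested genes, and it passed the filter through APP/PS1 animals alone. It was at 2.84, 1.54, 2.07 and 2.20 in the APP/PS1 females, 1.67, 1.71, 0.566 and 0.916 in the APP/PS1 males, 0.450 and 0.658 in the WT females and 0.421 and 0.493 in the WT males. Only APP/PS1 male 3 lay within the WT range. Its log2 fold change was 1.59 ± 0.27 (3.01-fold, FDR = 0.0132), at low levels. Its relative Ifi27 was at 52.0, 33.3, 35.4 and 35.03 in the APP/PS1 females, 34.1, 60.2, 28.9 and 33.3 in the APP/PS1 males, 25.8 and 47.9 in the WT females and 28.2 and 25.3 in the WT males. The values of the 3 choroid plexus-rich libraries stood above those of all others, the groups overlapped, and the fitted log2 fold change of 0.27 ± 0.06 (FDR = 0.0328) was adjusted for the RUV factors. Without these factors the FDR of Ifi27 was 0.855, and over the alternatives its log2 fold change ranged from 0.10 to 0.53. Sp100, a protein of nuclear bodies, rose by 0.62 ± 0.16 (FDR = 0.0913). The other 4 genes of this kind that were tested, Ifi35, Xaf1, Samd9l and Cmpk2, differed by 0.18 to 0.51 and did not pass.

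Of the 4 transcription factors of the response 1 passed. Irf9, the DNA-binding part of the type I complex, rose by 0.34 ± 0.08 (FDR = 0.0840). Its partner Stat2 differed by 0.26 ± 0.07 (FDR = 0.132), and Irf1, which interferon gamma induces, by 0.23 ± 0.10 (FDR = 0.429). Irf7, the factor that amplifies type I interferon production, differed by 0.79 ± 0.25 without passing (FDR = 0.224), at 0.927 to 3.82 CPM in APP/PS1 and 0.729 to 1.73 CPM in WT.

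**Figure D2:**
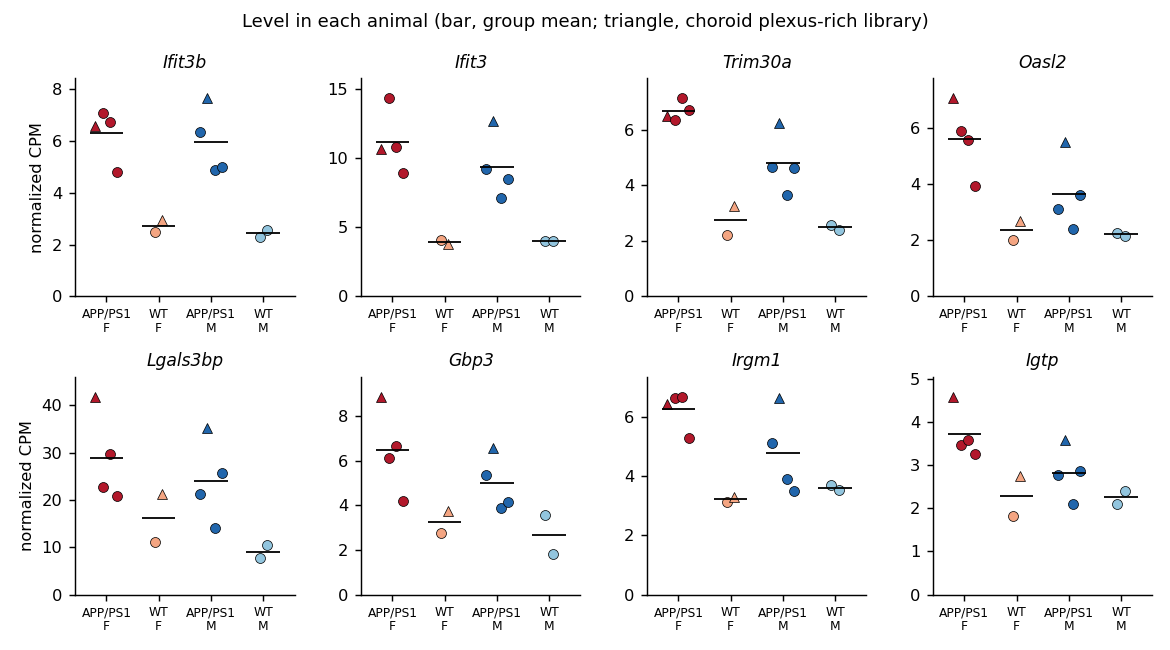
Level of 8 interferon-response genes in each animal, in normalized CPM on linear axes from 0, by genotype and sex (F, females, and M, males), with the group mean as a bar and choroid plexus-rich libraries as triangles. For Ifit3b, Ifit3, Trim30a and Gbp3 every APP/PS1 point is above every WT point, and for Irgm1 and Igtp APP/PS1 males reach down to the WT level.

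The gamma-type class consists of GTPases that are recruited to membranes around intracellular pathogens. Of the 3 guanylate-binding proteins 2 passed. Gbp3 was at 8.87, 6.12, 6.63 and 4.21 in the APP/PS1 females, 5.34, 6.56, 3.89 and 4.12 in the APP/PS1 males, 2.75 and 3.73 in the WT females and 3.55 and 1.81 in the WT males. The groups did not overlap, and the log2 fold change was 0.93 ± 0.18 (FDR = 0.0243). Gbp2 was at 5.80, 4.82, 4.21 and 2.59 in the APP/PS1 females, 3.46, 4.09, 2.60 and 2.60 in the APP/PS1 males, 2.30 and 2.02 in the WT females and 2.40 and 1.83 in the WT males. The lowest APP/PS1 animals, at 2.59, were above the highest WT animal, at 2.40, and the log2 fold change was 0.80 ± 0.18 (FDR = 0.0571). Gbp7 was at 7.83, 7.69, 5.64 and 4.65 in the APP/PS1 females, 7.16, 5.24, 4.30 and 4.58 in the APP/PS1 males, 3.97 and 4.96 in the WT females and 4.16 and 4.93 in the WT males. Its groups overlapped in both sexes, and the log2 difference of 0.42 ± 0.16 did not pass (FDR = 0.372).

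Of the 4 immunity-related GTPases 2 passed. Irgm1, of the regulatory subfamily, was at 6.43, 6.66, 6.70 and 5.30 in the APP/PS1 females, 5.13, 6.64, 3.91 and 3.51 in the APP/PS1 males, 3.15 and 3.29 in the WT females and 3.71 and 3.53 in the WT males. All APP/PS1 females were above all WT animals and APP/PS1 male 4 lay below both WT males. The log2 fold change was 0.64 ± 0.14 (FDR = 0.0426). Igtp, of the same subfamily, was at 4.58, 3.46, 3.57 and 3.26 in the APP/PS1 females, 2.77, 3.58, 2.10 and 2.85 in the APP/PS1 males, 1.83 and 2.74 in the WT females and 2.11 and 2.40 in the WT males. All APP/PS1 animals but APP/PS1 male 3, which lay below WT female 2 and both WT males, were above all WT animals, and the log2 fold change was 0.52 ± 0.13 (FDR = 0.0822). Irgm2 was at 4.96, 5.54, 5.20 and 3.99 in the APP/PS1 females, 5.01, 5.08, 3.26 and 3.79 in the APP/PS1 males, 3.41 and 4.37 in the WT females and 3.11 and 3.15 in the WT males. WT female 2 was higher than APP/PS1 female 4 and APP/PS1 males 3 and 4, and the log2 difference of 0.41 ± 0.14 did not pass (FDR = 0.310). Iigp1, an effector GTPase, was at 5.09, 4.66, 2.74 and 3.21 in the APP/PS1 females, 2.60, 3.83, 1.63 and 1.73 in the APP/PS1 males, 2.46 and 2.28 in the WT females and 2.0 and 1.77 in the WT males. APP/PS1 males 3 and 4 lay below all 4 WT animals, and the log2 difference of 0.49 ± 0.20 did not pass (FDR = 0.431).

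The promoters of the gamma-type genes are shown as 30-base stretches around their ISRE matches, because all 6 of these genes in the RefSeq table held such a match. Capitals mark matches to the ISRE core and, in Igtp and Irgm2, also the GAS core TTCNNNGAA, which reads the same on both strands. The stretches lie upstream of each start on the strand of the gene, at chr3:142559987-142560016 (plus strand) for Gbp3, chr3:142620592-142620621 (plus) for Gbp2, chr3:142530271-142530300 (plus) for Gbp7, chr11:48871433-48871462 (minus) for Irgm1, chr11:58199510-58199539 (plus) for Igtp and chr11:58214901-58214930 (plus) for Irgm2.
Gbp3: gtcaggacacagTTTCAGTTTCTATTTCcc
Gbp2: gaactcttttagTTTCACTTTCactgtctt
Gbp7: ctgtgtgtgcagTTTCAGTTTCagttctcc
Irgm1: agcctgtttcaaGAAATAGAAACCGAAAct
Igtp: tTTCTAGGAActGAAACTGAAAgctgttcg
Irgm2: tTTCCAGGAActGAAACTGAAAgctgttcg
In Gbp3 and in Irgm1 a second ISRE match overlaps the first, so that the capitals run on. In Igtp and Irgm2 the GAS match ends 2 bases before the ISRE match, and the stretches of these neighbouring genes are closely alike.

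Over the 34 of 45 genes with a promoter in that table (300 bases, from 250 before to 50 after the start), 17 held an ISRE match, against 3.99% of 27025 genes. These were 6 of 6 gamma-type and 11 of 28 type I-type genes. A GAS match was found in 3 of 6 gamma-type and 8 of 28 type I-type genes, against 9.55% of all genes. Among the 18 genes called higher and present in the table, 12 held an ISRE match, and of the 16 that were not called or not tested, 5 did. For the GAS match these counts were 4 of 18 and 7 of 16. Oasl2 and Lgals3bp, both called, held neither motif in this window. A match is a description of the letters and not a measured binding site.

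The 23 called genes and the other 4 genes with values by animal were followed over 25 alternative fits. Ifit3, Ifit3b and Trim30a were called in all 25, Oasl2 in 24, Ifit1 and Parp14 in 22, Gbp3 in 21, Bst2 and Lgals3bp in 20, Irgm1 in 19, Eif2ak2 and Isg15 in 18, Gbp2 in 16, Ifi27 and Ifit2 in 15, Ifih1 in 12, Parp9 in 9, Igtp and Sp100 in 8, and Herc6 and Irf9 in 7. Ifi27l2a was called in 19 of the 20 fits in which it was tested and Rtp4 in 15 of 23. Of the genes that were not called, Iigp1 was called in 2 alternatives, Gbp7 and Ifitm3 in 1 each and Irgm2 in none. None of these 27 genes changed direction in any of these fits. Of the 23 called genes, 10 overlap another gene in the GENCODE annotation, 7 on the opposite strand and 6 on the same, and the strand setting of the counting is not given in the sources used here. Without RUV factors, Gbp3, Gbp2, Ifih1, Sp100, Lgals3bp, Eif2ak2, Rtp4, Parp9, Herc6, Bst2, Igtp, Irf9 and Ifi27 lost their calls, at FDRs of 0.119 to 0.855. Without the 3 choroid plexus-rich libraries, Bst2, Parp14, Herc6, Ifih1, Irgm1, Sp100, Igtp, Ifit1, Parp9, Irf9, Ifit2, Gbp3 and Gbp2 lost their calls, at FDRs of 0.111 to 0.347.

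Single animals were left out in turn, which leaves 1 WT animal in a sex where a WT animal is left out. Without APP/PS1 female 1, Ifih1, Ifit2, Gbp2, Sp100, Irf9, Rtp4, Igtp, Herc6, Parp9 and Ifi27 lost their calls, at FDRs of 0.116 to 0.323. Without APP/PS1 female 2, Ifih1, Ifit2, Herc6, Isg15, Rtp4, Gbp2, Igtp, Parp9, Sp100 and Irf9 lost their calls, at FDRs of 0.105 to 0.203. Without APP/PS1 female 3, Isg15, Igtp, Irf9, Parp9, Herc6 and Sp100 lost their calls, at FDRs of 0.102 to 0.155. Without APP/PS1 male 1, Gbp2, Irf9, Parp9, Igtp, Sp100, Ifit2 and Herc6 lost their calls, at FDRs of 0.115 to 0.172. Without APP/PS1 male 2, Irgm1, Bst2, Lgals3bp, Eif2ak2, Gbp2, Isg15, Ifit2, Rtp4, Sp100, Ifih1, Irf9, Parp9, Igtp, Herc6 and Ifi27 lost their calls, at FDRs of 0.104 to 0.825. Without APP/PS1 male 3, Sp100, Parp9, Herc6 and Ifit2 lost their calls, at FDRs of 0.101 to 0.123. Without APP/PS1 male 4, Sp100, Igtp and Herc6 lost their calls, at FDRs of 0.102 to 0.118. Without WT female 1, Parp14, Ifi27l2a, Gbp3, Ifit1, Lgals3bp, Irgm1, Eif2ak2, Ifit2, Rtp4, Isg15, Ifih1, Irf9, Parp9, Sp100, Igtp, Herc6 and Ifi27 lost their calls, at FDRs of 0.111 to 0.866. Without WT female 2, Herc6, Isg15, Sp100, Ifih1, Igtp, Irgm1, Rtp4, Parp9, Irf9, Gbp2 and Ifit2 lost their calls, at FDRs of 0.107 to 0.237. Without WT male 1, Ifih1, Irf9, Igtp and Herc6 lost their calls, at FDRs of 0.108 to 0.164. Without WT male 2, Ifi27, Irgm1, Herc6, Ifih1, Igtp, Rtp4, Isg15, Gbp2, Ifit2, Parp9, Irf9 and Sp100 lost their calls, at FDRs of 0.105 to 0.409. Leaving out APP/PS1 female 4 ended none of these calls among the genes still tested. Without APP/PS1 female 1, 3 or 4, Ifi27l2a fell below the filter and was not tested. This was also so without the 3 choroid plexus-rich libraries, where Rtp4 fell below the filter too.

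Levels per length, on which genes can be compared with each other, spanned a wide range. In WT the mean was 21.7 RPKM (CPM per kilobase of exon) for Ifi27, 20.9 for Adar and 10.7 for Ifitm3, the highest 3 of the list, while Ifit3, Ifit3b and Trim30a were at 2.26, 1.29 and 0.636 RPKM and the gamma-type genes at 0.366 to 1.12 RPKM. In APP/PS1 the means of Ifit3, Ifit3b and Trim30a were 5.90, 3.07 and 1.40 RPKM.

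In females alone 9 of the 37 genes were called higher, against 0.735% of all tested genes. They were Ifit3, Ifit3b, Trim30a, Oasl2, Parp14, Ifi27l2a and Lgals3bp of the type I-type and Igtp and Irgm1 of the gamma-type. The median log2 fold change in females was 0.67 over the type I-type and 0.83 over the gamma-type genes. The largest were Ifi27l2a at 1.99 ± 0.38 (FDR = 0.0446) and Ifit3 at 1.59 ± 0.22 (FDR = 0.00769). Over all 14008 genes, 108 were called in females in either direction and 67 without RUV factors. The likelihood ratio test called 288 of them and DESeq2 296. The female count was 3 without RUV factors, and it was 18 by the likelihood ratio test of edgeR and 19 by DESeq2. It was lower than in the main fit without the choroid plexus-rich libraries and without WT female 2, although female calls over all genes were not fewer there. Without WT female 1 both were lower. Each of these fits leaves 1 WT female.

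In males alone 3 of the 37 genes were called higher, against 0.171% of all tested genes. These were Ifit3b at 1.22 ± 0.20 (FDR = 0.0373), Lgals3bp at 1.20 ± 0.19 (FDR = 0.0630) and Ifit3 at 1.16 ± 0.21 (FDR = 0.0816). The median log2 fold change in males was 0.42 over the type I-type and 0.30 over the gamma-type genes. Over all 14008 genes, 24 were called in males in the main fit, 142 by the likelihood ratio test and 146 by DESeq2. The last 2 tests each called 7 of the 37. The male count was 0 without APP/PS1 male 2, where 9 had an unadjusted p under 0.05. It was 1 without APP/PS1 male 1 or 4 and 6 without APP/PS1 male 3. All male calls in these fits were, in that order, 9 of 13893, 18 of 13966, 20 of 13972 and 43 of 14002. The count was also lower without WT male 2, WT female 1 or WT female 2, each of which leaves 1 WT animal in a sex.

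In the fit with RUV factors, the rise was larger in females than in males for 31 of the 37 genes, against 52.4% of all tested genes. These were 24 of 30 type I-type and 7 of 7 gamma-type genes. A count without the factors is not given. WT female 2 was choroid plexus-rich and neither WT male was, so that the female contrast leans more on these factors. The 2 contrasts share no animals, but both come from 1 model with common RUV factors and a common estimate of variation, so that they are not separate. Leaving out APP/PS1 male 1 moved the female count of called genes from 9 to 15. Each contrast rests on 2 WT animals, and the genes are not independent of each other. None of the 37 had a different rise in the sexes by the interaction test at an FDR under 0.1, by edgeR's quasi-likelihood or likelihood ratio test or by DESeq2, which called 0, 12 and 9 of all 14008 genes, and the lowest FDR among the 37 was 0.995. At an unadjusted interaction p under 0.05 there were 5 genes, all with the larger rise in females, against 2.14% of all tested genes, and 5 and 4 with the other 2 tests. Without RUV factors there were none, and over all alternatives 0 to 8.

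The 5 genes were Oasl2, Parp14, Irgm1, Igtp and Ifitm3. Oasl2, whose values by animal are given above, rose by 1.42 ± 0.19 in females (FDR = 0.00656) and differed by 0.56 ± 0.19 in males (FDR = 0.596), a difference of 0.86 ± 0.27 between the sexes (unadjusted p = 0.00675). For Parp14 the log2 fold change was 1.08 ± 0.19 in females and 0.34 ± 0.18 in males, a difference of 0.74 ± 0.26 (unadjusted p = 0.0126). The WT females were lower in Parp14 than the WT males, by 0.48 on the log2 scale in the fit (unadjusted p = 0.0476). The difference between the sexes was 0.68 ± 0.28 for Irgm1, 0.61 ± 0.26 for Igtp and 0.79 ± 0.36 for Ifitm3 (unadjusted p = 0.0281, 0.0323 and 0.0481). Ifitm3 rested on WT male 2, at 10.6 CPM against 5.82 CPM in WT male 1.

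**Figure D3:**
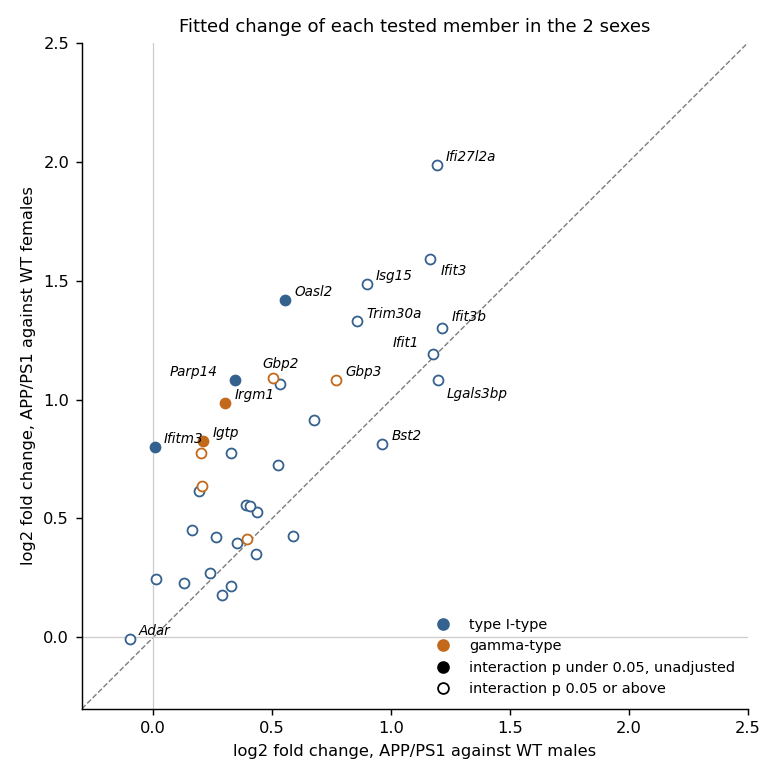
Fitted log2 fold change of APP/PS1 against WT in females (vertical axis) and in males (horizontal axis) for the 37 tested genes, blue for type I-type and orange for gamma-type, with the line of equal change dashed. Filled points had an unadjusted interaction p under 0.05, and 31 of 37 points lie above the line. The fit held the RUV factors.

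APP/PS1 females were compared with APP/PS1 males directly, which needs no WT animal. None of the 37 genes was called at an FDR under 0.1, against 0.0571% of all genes called higher in females. At an unadjusted p under 0.05, 8 genes were higher in females and none was lower, against 2.87% of all genes higher. They were Oasl2 at 0.64 ± 0.14, Trim30a at 0.51 ± 0.14, Ifi27l2a, Iigp1, Igtp, Irgm1, Irf7 and Isg15, with log2 differences of 0.40 to 0.89 and FDRs of 0.537 to 0.920. Between WT females and WT males no gene passed the FDR, and Parp14 alone, lower in females, had an unadjusted p under 0.05, against 2.33% of all genes.

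The animals were also described by the mean log2 level of each class, set against the mean of the 4 WT animals. For the type I-type class the APP/PS1 females were at 0.97, 0.81, 0.74 and 0.56, the APP/PS1 males at 0.61, 0.86, 0.17 and 0.41, the WT females at -0.11 and 0.27, and the WT males at -0.02 and -0.14. APP/PS1 male 3 lay below WT female 2, a choroid plexus-rich library, and all other APP/PS1 animals lay above all WT animals. For the gamma-type class they were at 1.09, 0.92, 0.73 and 0.41 in APP/PS1 females, 0.57, 0.77, 0.04 and 0.15 in APP/PS1 males, -0.05 and 0.16 in WT females, and 0.02 and -0.14 in WT males. APP/PS1 males 3 and 4 lay within the WT range. The order of the 4 animals within each APP/PS1 sex was the same in both classes, with the choroid plexus-rich library highest in each.

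**Figure D4:**
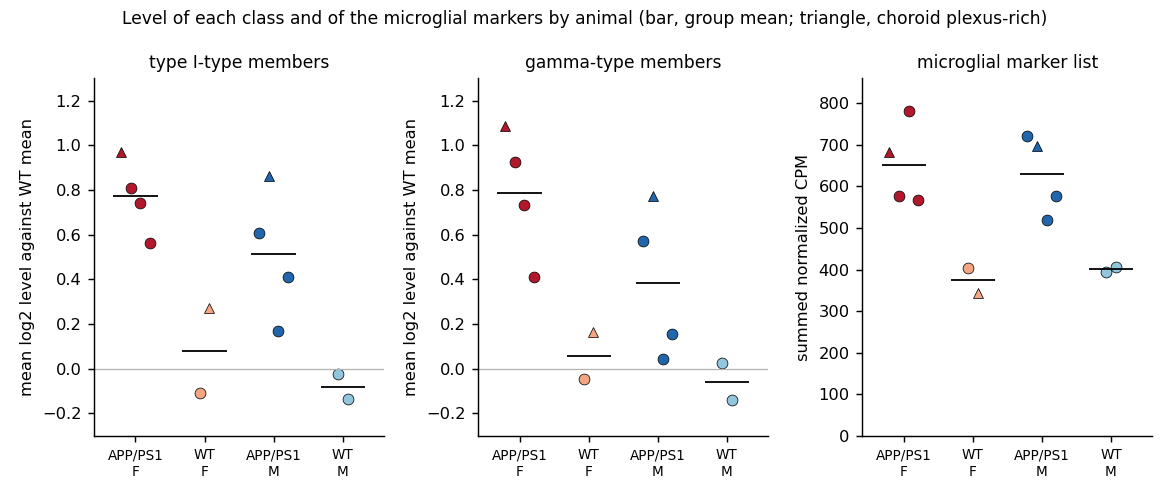
Mean log2 level of the 30 type I-type and the 7 gamma-type genes in each animal, relative to the mean of the 4 WT animals, and the summed CPM of 13 microglial marker genes on an axis from 0, with group means as bars and choroid plexus-rich libraries as triangles. The microglial sum is above all WT animals in 8 of 8 APP/PS1 animals, the type I-type level in 7 and the gamma-type level in 6.

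The 8 genes below the filter are described by their reads. Oas1a, an oligoadenylate synthetase, had 26 to 69 reads in the APP/PS1 libraries (median 31.5) and 7 to 17 in WT, without overlap. Without any filter, where 0.785% of 33621 genes were called higher, Oas1a rose by 1.59 ± 0.29 (FDR = 0.00156) and Dhx58, the RNA sensor LGP2, at 39 to 71 reads against 15 to 43, by 0.90 ± 0.23 (FDR = 0.0476). Both also passed with a filter on CPM in place of log2 CPM, under which 1.81% of 15521 genes were called higher, but no WT animal reached that filter's level for either gene, so that they were kept through the APP/PS1 animals. Oas1a shares 32.4% of its 150-base stretches with Oas1g. Usp18, which removes Isg15 from proteins and dampens receptor signalling, had 23 to 104 reads in APP/PS1 and 14 to 34 in WT, and passed without any filter (1.22 ± 0.29, FDR = 0.0407) and not with the CPM filter (1.25 ± 0.33, FDR = 0.111). Zbp1, Oas2, Ifi44 and Slfn2 were below the CPM filter too, and with no filter neither they nor Ifi204 passed the test. Slfn2 had 16 to 35 reads in APP/PS1 and 18 to 34 in WT.

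The genes around the response were counted from lists that include no member. Of 21 interferon ligands, 18 had no count in any of the 12 libraries, and the others had at most 3 reads in a library (Ifng, in APP/PS1 female 4). Transcripts of the 18 were not detectable at this depth. Of 13 tested receptor and JAK-STAT genes none was called, whereas 2 had an unadjusted p under 0.05. The type I receptor gene Ifnar1 was at 37.5 to 42.1 CPM in APP/PS1 and 38.4 to 40.4 CPM in WT, and Ifnar2 at 9.75 to 14.5 CPM in APP/PS1 and 9.08 to 10.9 CPM in WT. The gamma receptor gene Ifngr1 was at 14.9 to 18.6 CPM in APP/PS1 and 14.4 to 19.0 CPM in WT, and Ifngr2 at 56.1 to 65.6 CPM in APP/PS1 and 53.9 to 61.5 CPM in WT.

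Of 14 tested genes of the sensing pathways that lead to interferon production, 5 were called higher. They were Irf8 at 1.21 ± 0.19 (FDR = 0.0129), Irf5 at 0.71 ± 0.11 (FDR = 0.00796), Aim2 at 0.65 ± 0.14 (FDR = 0.0437), Unc93b1 at 0.54 ± 0.11 (FDR = 0.0359) and Ddx58, the RNA sensor RIG-I, at 0.49 ± 0.10 (FDR = 0.0417). Irf8 and Irf5 are transcription factors that microglia express, Aim2 is a DNA sensor and Unc93b1 carries Toll-like receptors to endosomes.

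Of 25 tested further type I-type interferon-stimulated genes, which the 45 do not include, 5 were called higher, and 35 of that list were below the filter. B2m, the light chain of MHC class I, rose by 0.75 ± 0.09 (FDR = 0.00212), from 58.2 to 68.2 CPM in WT to 83.0 to 131 CPM in APP/PS1. The antigen processing genes Psmb8 and Tap1 rose by 0.84 ± 0.20 and 0.66 ± 0.14 (FDR = 0.0840 and 0.0391), Lgals9 by 0.60 ± 0.11 (FDR = 0.0220) and Rnf213 by 0.52 ± 0.10 (FDR = 0.0269). Of 16 other guanylate-binding proteins and immunity-related GTPases only Gbp5 and Gbp9 were tested, and their differences of 0.63 ± 0.24 and 0.56 ± 0.22 did not pass (FDR = 0.390 and 0.387).

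Microglial markers were also higher in APP/PS1 animals. Of 13 markers 10 were called higher (median log2 fold change 0.68 over the 13), and their summed level was 520 to 781 CPM in APP/PS1 against 345 to 406 CPM in WT, without overlap. Of the 10 tested genes of plaque-associated microglia 8 were called higher, with a summed level of 198 to 294 CPM against 113 to 135 CPM, and Cst7 was at 6.04 to 14.9 CPM against 0.0263 to 0.106 CPM. In bulk tissue, more cells of a type and more RNA per cell cannot be told apart, and the part of the microglial rise in the rise of the interferon-response genes was not tested.

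Few markers of other cell types were called. Astrocyte markers summed to 5597 to 6406 CPM in APP/PS1 and 5415 to 5707 CPM in WT, with 1 of 8 called higher, and endothelial markers to 164 to 238 and 159 to 250 CPM, with none of 8 called and 1 at an unadjusted p under 0.05. Markers of T and NK lymphocytes summed to 2.24 to 3.04 CPM in APP/PS1 and 1.99 to 2.48 CPM in WT, and those of B lymphocytes to 0.127 to 0.549 CPM in APP/PS1 and 0.138 to 0.197 CPM in WT, with 7 of 8 APP/PS1 animals above all WT animals. Markers of monocytes and neutrophils summed to 0.329 to 2.27 CPM in APP/PS1, and to 0.342 to 8.02 CPM in WT, the highest in WT male 2. The genes of the transgenes and of the prion promoter summed to 2356 to 2519 CPM in APP/PS1 and 2346 to 2593 CPM in WT, so that these counts do not check the genotype labels.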

How the data were processed

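Total RNA from the right hippocampus of 12 mice was sequenced by the authors as paired-end reads, which they trimmed with Trimmomatic, aligned to GRCm38 with STAR and counted per gene with HTSeq. The versions, the annotation release and the strand and multi-mapping settings of the counting are not given in the sources used here. The deposited values are raw counts for 55573 Ensembl genes, 1 column per animal, of which 55480 IDs were found in GENCODE M21, the source of symbols, positions and exon lengths. Replicates were separate mice, and each of the 14 pairs within a group differed by more than sampling noise (chi-square per degree of freedom 11.6 to 52.0).

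The expression filter kept 14008 genes whose log2 CPM reached 1 in 3 or more animals. Counts were scaled by upper quartile, and 2 factors of unwanted variation were estimated by the RUVg method, re-implemented, with the 5000 genes of smallest p in a first-pass test left out of the control genes. A model with 4 group means and these factors was fitted with edgeR 4.0.16 in R 4.3.3 (quasi-likelihood test, two-sided), with limma 3.58.1 as its base. P-values were adjusted by Benjamini-Hochberg over all tested genes, and a gene counted as called at an FDR under 0.1. The code was tested on simulated counts. RPKM values were computed from exon length. Promoters were searched on both strands for GAAANNGAAA (ISRE) and TTCNNNGAA (GAS).

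The 45 genes, the other gene lists and the alternatives were chosen with earlier results of these data known. Values for each animal are given for the 15 genes with the smallest p in the averaged comparison, the 7 gamma-type genes and the 5 genes with the smallest interaction p, and other genes by counts and ranges. Alternatives were the likelihood ratio test, DESeq2 1.42.0, TMM scaling, other expression filters, 0 or 1 factor, another first pass, a replicate block, an FDR of 0.05, each sex alone, leaving out each animal, and leaving out the 3 choroid plexus-rich libraries. The fit without these libraries and without factors, and the likelihood ratio test without factors, were added after seeing the data. Some results are not reported here.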

Additional observations from a re-analysis of the deposited data

Results flagged for a closer look

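Of 74 tests of a single animal's distance from its group (Dixon's test in the APP/PS1 females and males), 4 exceeded the critical value, and chance gives about 1 in 20. In 3 of the 4 the animal was a choroid plexus-rich library. Stat2 was at 21.7 CPM in APP/PS1 female 4 against 25.9 to 26.3 CPM in the other females, a gap of 0.919 of the range. Eif2ak2 was at 14.2 CPM in APP/PS1 male 2 against 8.81 to 9.21 CPM in the other males, a gap of 0.907. Ifi27 was at 52.0 CPM in APP/PS1 female 1 against 33.3 to 35.4 CPM (0.865), and Xaf1 in the same animal was at 6.86 CPM against 4.56 to 4.85 CPM (0.851). The part of choroid plexus tissue in the last 3 was not tested.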

How the results depend on the processing

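Over all 14008 genes, 266 were called with both sexes averaged, 173 with no RUV factors and 183 at an FDR under 0.05. The likelihood ratio test without RUV factors called 224. In females, all calls were 205 of 33621 genes with no expression filter and 133 of 15521 with the CPM filter. Of 37 tested interferon-response genes, 23 were called with both sexes averaged. This count was 10 with no RUV factors, 13 at an FDR under 0.05, 13 with the likelihood ratio test without RUV factors, and 8 to 22 when 1 APP/PS1 animal was left out. It was also lower without the 3 choroid plexus-rich libraries, where calls over all genes did not become fewer. Without these libraries and without RUV factors both were lower. In females, 9 were called, and the count was 18 with the likelihood ratio test, 19 with DESeq2, 14 with no expression filter and 14 with the CPM filter. It was 3 with no RUV factors and 6 to 15 when 1 APP/PS1 animal was left out. Without the choroid plexus-rich libraries it was lower, although female calls over all genes were not fewer. Without these and without RUV factors both were lower. Over all 14008 genes, 24 were called in males, 142 with the likelihood ratio test, 146 with DESeq2 and 16 at an FDR under 0.05. Of the 37, 3 were called in males, and the count was 7 with the likelihood ratio test and with DESeq2 and 1 at an FDR under 0.05. It was 0 to 6 when 1 APP/PS1 animal was left out. With each sex alone and without RUV factors it was 0, where 12 of 13561 genes were called in all. The cause was not tested. A fit that leaves out a WT animal assumes that the other WT animal of that sex varies like the other groups. The interaction gave 0 calls in every fit. Class medians were 0.42 to 0.57 (type I-type) and 0.45 to 0.58 (gamma-type) when 1 animal was left out. Of 668 values of 27 genes across the alternatives, 486 kept their side of the threshold, 178 lost a call, 4 gained 1 and 0 changed direction.

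Replicate numbers were not treated as pairs in the main model. Of 14 same-numbered pairs across groups, 4 had deviations correlated above 0.1 (range -0.64 to 0.70). The deviations of the 2 WT animals of a sex mirror each other. The highest value was between 2 choroid plexus-rich libraries, WT female 2 and APP/PS1 male 2. These correlations therefore cannot show whether same-numbered animals were paired. A replicate block with RUV factors called 18 genes averaged, 9 in females and 2 in males, with a gamma-type median of 0.80. The replicate block without RUV factors called 5 in females and gave medians of 0.66 (type I-type) and 0.86 (gamma-type). The medians were 0.49 and 0.52 in the main model.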
